A study of Mus musculus with 2 samples.

Results

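The alpha and beta tubulin isotype genes Tuba1a, Tuba1b, Tuba1c, Tuba4a, Tubb2a, Tubb2b, Tubb3, Tubb4a, Tubb4b and Tubb5 were read out in total RNA of the mouse embryonic hindbrain. They are 10 of 16 annotated alpha and beta tubulin genes, 4 alpha and 6 beta, among 43346 genes in the deposited tables, and were chosen by name, not by level. The series held 1 group of 2 libraries, replicate 1 from a pool of 78 embryos and replicate 2 from a pool of 62, both of strain B6NCrl at embryonic day 15.5 with males and females mixed. No allele or agent was named for either pool, and the input of each library was 10 ng of RNA above 200 nt, to which spike-in RNAs of synthetic origin were added. With 1 group there was no contrast between conditions and no p-value was computed. Each value is given for replicate 1 and then replicate 2, and each mean ± SD is over n = 2 libraries.

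Microtubules are polymers of alpha and beta tubulin dimers, and each subunit is encoded by a small family of genes called isotypes. The isotypes are nearly identical over the body of the protein and differ mostly in the C-terminal tail, which projects from the microtubule surface and carries many of the enzymatic modifications of tubulin. In the developing brain, microtubules form the mitotic spindle of progenitors, guide migrating neurons and fill growing axons. Mutations in human TUBA1A, TUBB2B and TUBB3 cause malformations of the brain or defects of axon growth.

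The gene counts summed to 40020322 in replicate 1 and 43263959 in replicate 2. Of 10 genes listed as hindbrain markers, 9 were detected at 1 TPM or more in both libraries, while 1 of 6 forebrain markers was. TPM is a relative abundance per transcript, corrected for transcript length. All 10 markers of postmitotic neurons and all 8 of progenitors and radial glia were detected. Over all nuclear protein-coding genes, 63.1% were detected. The libraries differed in some regional genes. Lhx2, a LIM homeobox factor, stood at 50.7 TPM in replicate 1 and 9.96 in replicate 2. Emx1, a cortical factor, had 0.03 and 1.52 TPM, and Tbr1, a T-box factor of cortical neurons, had 0.80 and 2.63 TPM. The part of this difference in the tubulin values was not tested.

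The coding sequences of the isotypes were compared in the GENCODE M21 transcripts of the GRCm38 genome, using for each gene its most abundant transcript with a complete coding sequence. Among the alpha genes identity ranged between 84.7 and 98.3% over 6 pairs, with Tuba1a and Tuba1b the most alike. Among the beta genes it ranged between 81.4 and 96.5% over 15 pairs, with Tubb2a and Tubb2b the most alike. These 2 genes share an unbroken identical run of 551 bases. The last 60 coding bases, which encode the tail and the stop codon, had a lower identity than the rest of the coding sequence in 5 of 6 alpha pairs and in 15 of 15 beta pairs. Their median identity was 65.8% for alpha pairs, against 92.3% over the rest, and 71.7% for beta pairs, against 84.2% over the rest. Each was taken over the aligned stretch that holds the last 60 bases of both genes. Alignment gaps count as mismatches, so differences in length lower these identities.

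Those terminal 60 bases are shown for the 6 beta isotypes because all beta pairs were less alike there than over the rest. Each stretch lies within exon 4 of its transcript and is printed 5′ to 3′ on the coding strand, with its GRCm38 position. Capitals mark bases that do not match Tubb5 in an alignment of the whole coding sequences.
Tubb5, chr17:35834982-35835041, minus strand: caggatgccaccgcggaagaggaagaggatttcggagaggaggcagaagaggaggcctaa
Tubb2a, chr13:34074468-34074527, minus strand: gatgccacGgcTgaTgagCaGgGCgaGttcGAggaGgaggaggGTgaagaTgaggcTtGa
Tubb2b, chr13:34127471-34127530, minus strand: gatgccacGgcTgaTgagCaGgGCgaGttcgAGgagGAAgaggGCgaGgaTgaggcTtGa
Tubb3, chr8:123421623-123421682, plus strand: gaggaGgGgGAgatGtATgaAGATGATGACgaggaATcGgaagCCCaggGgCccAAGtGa
Tubb4a, chr17:57080690-57080749, minus strand: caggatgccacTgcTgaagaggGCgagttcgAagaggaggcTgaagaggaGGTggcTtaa
Tubb4b, chr2:25222308-25222367, minus strand: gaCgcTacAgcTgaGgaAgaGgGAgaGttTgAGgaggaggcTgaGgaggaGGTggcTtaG
Tubb3 stood furthest from Tubb5, with 29 unmatched bases, and Tubb4a nearest, with 10. Tubb2a had 16, Tubb2b had 19 and Tubb4b had 20. The capitals and these counts include bases that face an alignment gap in Tubb5. Gaps in the printed gene itself, 3 in Tubb4a, are not marked.

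Alpha tubulin RNA was almost all Tuba1a, the alpha isotype most closely tied to postmitotic and migrating neurons. Tuba1a (ENSMUSG00000072235, chr15:98949837-98953703, minus strand, GRCm38) had 13055 and 13881 TPM, a mean of 13468 ± 585. It ranked 1 in both libraries among 21461 nuclear protein-coding genes, whose median was 5.69 TPM. Its share of the TPM of all 8 annotated alpha tubulin genes was 91.9% in replicate 1 and 92.4% in replicate 2. In bulk tissue, fewer cells of a type and less RNA per cell cannot be told apart, so these shares describe the whole hindbrain and no one cell.

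Tuba1b, a broadly expressed isotype whose gene neighbours Tuba1a on chromosome 15, had 1103 and 1106 TPM. Its alpha share was 7.77% in replicate 1 and 7.36% in replicate 2, and its TPM was 12.2 ± 0.504 times below that of Tuba1a. Together Tuba1a and Tuba1b made up 99.7 ± 0.0220% of alpha tubulin TPM. Tuba4a, an isotype whose gene does not encode the terminal tyrosine found in most alpha tubulins, had 22.3 and 21.5 TPM. Tuba1c, which lies on the opposite strand of the same chromosome 15 cluster as Tuba1a, had 18.1 and 16.6 TPM. Tuba4a was above Tuba1c in both libraries and the ranges did not overlap, with shares of alpha TPM of 0.150 ± 0.00993% and 0.119 ± 0.0123%.

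**Figure D1:**
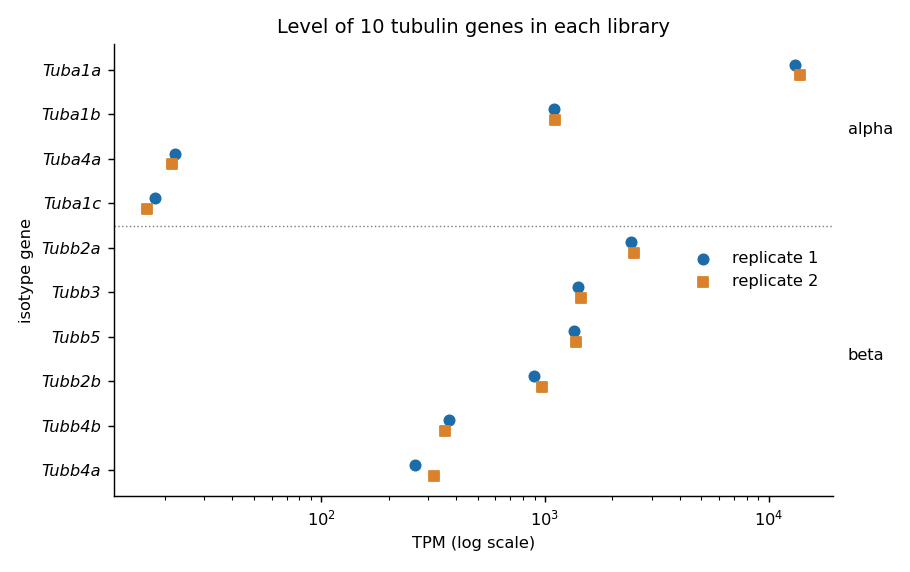
TPM (log axis) of the 10 isotype genes in each library, circles for replicate 1 and squares for replicate 2, alpha genes above the dotted line and beta genes below it. Tuba1a stands at 13055 and 13881 TPM, Tuba4a and Tuba1c near 20 TPM, and the 6 beta genes between 263 and 2490.2 TPM.

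Beta tubulin RNA was spread over several isotypes. Tubb2a, a beta isotype abundant in neurons (chr13:34074274-34078007, minus strand), was the highest, with 2425 and 2490.2 TPM, a mean of 2458 ± 46.1. Its share of the TPM of all 8 annotated beta tubulin genes was 36.0% in replicate 1 and 35.7% in replicate 2. Tubb3, the neuronal isotype long used as a marker of newborn neurons (chr8:123411424-123422015, plus strand), followed with 1406 and 1445 TPM. Tubb5, an isotype expressed in progenitors as well as neurons (chr17:35833921-35838306, minus strand), had 1345 and 1377 TPM. The ranges of Tubb3 and Tubb5 did not overlap, but the step between them was small, a ratio of 1.05 ± 0.00230. These 3 genes made up 76.5 ± 0.616% of beta tubulin TPM.

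Tubb2b, the near copy of Tubb2a that lies beside it on chromosome 13, had 891 and 974 TPM, or 13.6 ± 0.501% of beta TPM. Tubb2a was 2.64 ± 0.117 times above Tubb2b, and the pair held 49.4 ± 0.230% of beta TPM. Tubb4b, a broadly expressed isotype that is also a component of motile cilia, had 374 and 358 TPM. Tubb4a, which is prominent in mature neurons and myelinating oligodendrocytes, had 263 and 318 TPM. Tubb4b stayed above Tubb4a in both libraries, by a ratio of 1.42 in replicate 1 and 1.13 in replicate 2. Their mean beta shares were 5.35 ± 0.305% and 4.24 ± 0.457%.

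**Figure D2:**
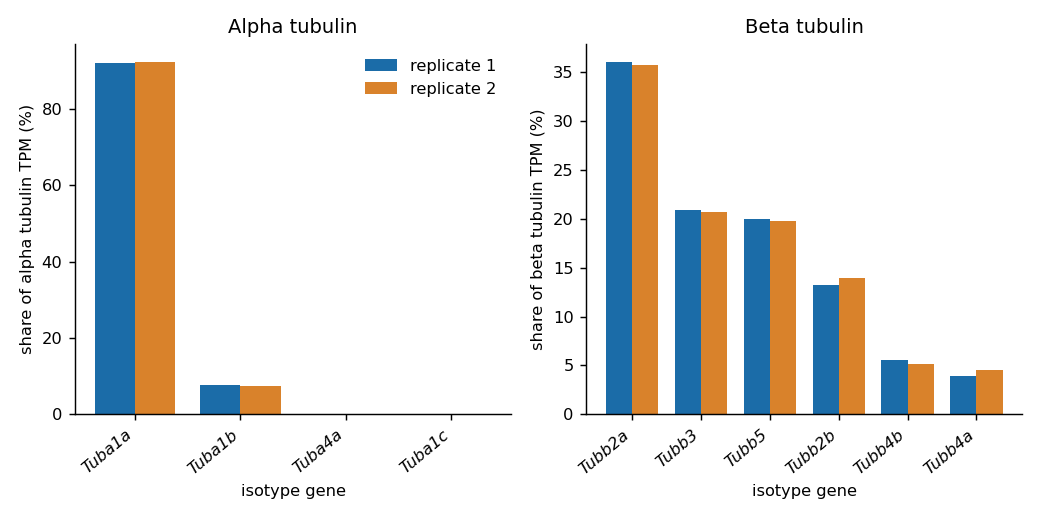
Share (%) of each isotype in the summed TPM of all annotated alpha genes (left) or beta genes (right), with 1 bar per library. Tuba1a takes 91.9 and 92.4% of alpha TPM while Tuba4a and Tuba1c are too low to be seen, and Tubb2a, Tubb3 and Tubb5 lead the beta genes.

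The summed alpha TPM was 14198 and 15026, and the summed beta TPM was 6729 and 6984. Although the proteins pair one to one in the dimer, alpha RNA exceeded beta RNA 2.11-fold in replicate 1 and 2.15-fold in replicate 2. Both families together held 2.68% and 2.79% of nuclear protein-coding TPM. The order within each family was the same in both libraries for every neighbouring pair of the 10 genes, with no overlap of ranges. The beta order depends on the correction for length, and the alpha order does not. In uncorrected counts, Tubb5 held 27.4 ± 0.274% of the beta total and Tubb3 20.2 ± 0.180%, so this pair stood the other way round. Tubb4a held 4.57% and 5.32% of the beta counts and Tubb4b 4.56% and 4.20%, so in counts Tubb4a was level with Tubb4b in replicate 1 and above it in replicate 2.

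The alpha genes outside the set were close to absent. Tuba8, an isotype of restricted expression, had 0.71 and 0.79 TPM, and Tuba3a, a testis isotype, had 0.03 and 0 TPM. Tubal3 had 0 and 0.04 TPM, and Tuba3b had 0 counts in both libraries, an upper limit of 0.0692 TPM for replicate 1 and of 0.0655 TPM for replicate 2. The ranges of Tuba3a, Tuba3b and Tubal3 overlapped, so they have no order. Tubb6 had 23.3 and 20.6 TPM, and Tubb1, the isotype of platelets and megakaryocytes, had 0.92 and 0.90 TPM. The limits for a count of 0, and the intervals of the log2 ratios below, cover counting error only. The deposited TPM intervals below describe each library by itself and do not cover differences between pools.

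Most isotype genes were read through a single transcript. Tuba1c, Tubb2a, Tubb2b, Tubb3 and Tubb4a have 1 annotated transcript each in the tables. The leading transcript held 98.9 ± 0.0728% of Tuba1a TPM, 98.7 ± 0.198% of Tuba1b, 99.3 ± 0.146% of Tubb4b and 98.0 ± 0.160% of Tubb5. Tuba4a was the exception, with 8 annotated transcripts. Its transcript Tuba4a-201 held 54.2% in replicate 1 and 46.1% in replicate 2, Tuba4a-206 held 20.8% and 28.0%, and Tuba4a-202 held 18.2% and 17.9%. Tuba4a-201 was the leader in both libraries, and the TPM intervals of its levels, 9.24 to 14.3 in replicate 1 and 7.20 to 11.5 in replicate 2, overlapped.

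The deposited tables give a TPM interval for every gene, and its width is set here beside that of counting error. The level of these intervals is not stated, but for coding genes with a single transcript and no spread in read assignment the interval was 0.988 times as wide, at the median, as a 95% interval from counting alone, over 3216 genes in replicate 1 and 3247 in replicate 2. Tubb3, Tubb4a and Tubb4b had intervals of the counting width, with ratios between 0.994 and 1.01. Tubb5 was slightly wider, at 1.05 in both libraries. Tuba1a reached 1.08 and 1.09, Tuba1b 1.18 and 1.20, Tubb2a 1.09 and 1.10, and Tubb2b 1.17 and 1.18. The widest were Tuba1c, at 1.47 and 1.48, and Tuba4a, at 1.65 and 1.52. Coding genes with at least 20 counts had a median ratio of 1.13 in both libraries.

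Relative to the posterior mean TPM, the intervals of the abundant isotypes were narrow. The width was 0.590% and 0.558% for Tuba1a, 2.14% and 2.12% for Tuba1b, and 1.40% and 1.35% for Tubb2a. It was 2.24% and 2.10% for Tubb2b, 1.55% and 1.49% for Tubb3, and 1.40% and 1.34% for Tubb5. Tubb4b had widths of 3.28% and 3.23%, and Tubb4a 3.26% and 2.87%. The low alpha isotypes were far less precise, at 19.6% and 20.0% for Tuba1c and 20.0% and 18.6% for Tuba4a. For 8 of the 10 genes in each library the deposited TPM itself lay above its interval, which held for 3.63% of detected coding genes in replicate 1 and 3.48% in replicate 2. The posterior mean was 0.979 and 0.980 times the TPM at the median over coding genes of 100 TPM or more, an offset larger than the narrow intervals of abundant genes. The offset leaves the shares almost as they were, with Tuba1a at 92.2% of alpha by posterior means.

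Shared sequence was measured as the share of 100-base windows of a transcript that occur in a transcript of another gene. It was 65.1% for Tuba1a, 69.5% for Tuba1b and 53.4% for Tuba1c, counting pseudogenes and a readthrough transcript. With other tubulin genes alone it was 38.4% for Tuba1a, 52.3% for Tuba1b and 53.4% for Tuba1c. Some of the M21 genes counted, Gm49450 and Gm3226 among them, have no deposited gene level. Over all other genes the share was 36.9% for Tubb2a and 27.7% for Tubb2b, mostly windows that each shares with the other. Tubb4b had 29.2%, all of it shared with pseudogenes at or under 0.99 TPM, and Tuba4a, Tubb3, Tubb4a and Tubb5 had none. The spread in assigned reads, as a posterior SD, was 124 reads in replicate 1 and 139 in replicate 2 for both Tubb2a and Tubb2b, the same value in each gene of the pair. It was 0 in both libraries for Tubb3 and Tubb4a. For Tuba1c it was 32.6 and 32.8 reads, or 3.69% and 3.84% of its count, against 0.0236% and 0.0223% for Tuba1a.

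**Figure D3:**
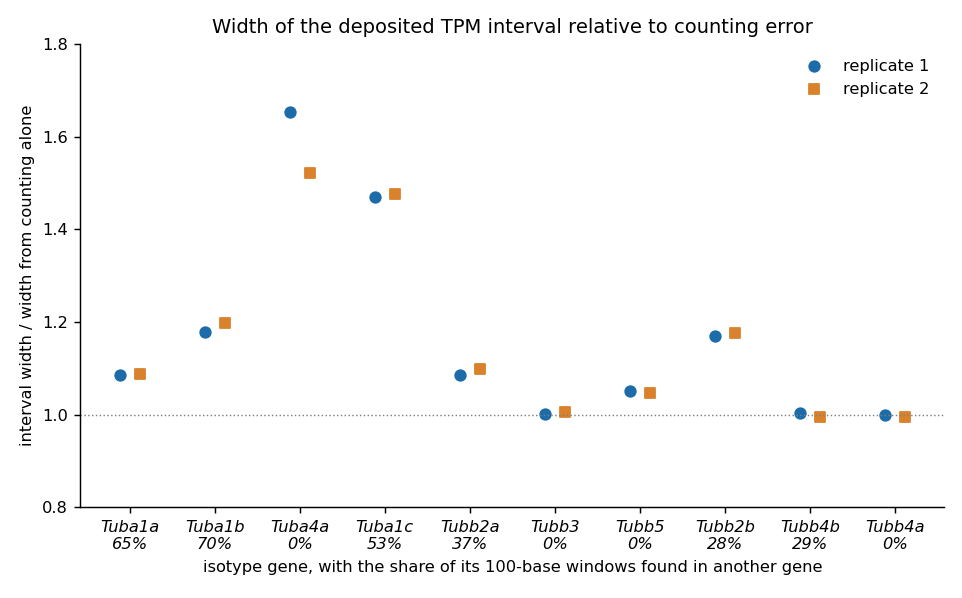
Width of the deposited TPM interval divided by the width that counting alone would give, for each isotype and library. Under each name is the percentage of 100-base windows found in another M21 gene, pseudogenes included. Tubb3, Tubb4a and Tubb4b lie at 1, the near copies Tuba1b and Tubb2b between 1.17 and 1.20, and Tuba1c and Tuba4a highest, although the Tuba4a transcript measured has no shared window.

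Tuba4a, with the widest interval, has 8 transcripts and a posterior SD of 13.4 and 12.8 reads. Its windows were read from Tuba4a-202, which has a complete coding sequence but holds 18.1 ± 0.200% of its TPM, and those of its more abundant transcripts were not measured. Its gene also overlaps Stk16 on the opposite strand over 1379 bases, a kinase gene at 117 and 119 TPM, and whether counting used strand is not given in the sources used here. Tubb3 lies within Gm20388 on the same strand, a readthrough gene at 6.46 and 6.47 TPM. Gm49450, a readthrough model, spans Tuba1a and Tuba1b in the M21 annotation. One of its transcripts, at 10.5 and 10.6 TPM, stood in the tables under Tuba1a and is counted in the Tuba1a level. The part of these overlaps in the levels was not tested.

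The pools were close in their tubulin RNA. The log2 ratio of scaled estimated counts, replicate 1 over replicate 2, lay between -0.24 and 0.16 over the 10 genes. None was past 0.32 in either direction, compared with 16.7% of the 17048 genes whose mean count was at least 20. Among genes with a mean count of at least 100, which all 10 had, the share was 8.78%. No p-value belongs to this count, and 0 among 10 genes is not read as a difference from these shares. The median absolute log2 ratio was 0.07 for the 10 genes and 0.11 for all genes. Tubb2a, Tubb3 and Tubb5 each had a log2 ratio of -0.01, and their 95% exact counting intervals held 0. The other 7 had intervals without 0, as did 38% of the 17048 genes. Their counts are large, so intervals from counting are narrow, and the log2 ratios of all genes between these pools had an SD of 0.40.

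The gene that differed most was Tubb4a, with a log2 ratio of -0.24 and an interval of -0.27 to -0.21. Its absolute ratio was larger than that of 76.4% of genes. Tubb2b was also lower in replicate 1, at -0.10, and Tuba1a at -0.06. Tuba1c at 0.16, Tuba4a at 0.15 and Tubb4b at 0.09 were higher in replicate 1. Tuba1b stood at 0.03 in scaled counts but at -0.0042 in TPM, so its direction turns with the scale. Scaling by the spike-in RNAs moved the median gene by 0.11, and with it Tuba1a stood at 0.06, Tubb2b at 0.02 and Tubb2a, Tubb3 and Tubb5 at 0.11, so the sign of these 5 depends on the scaling as well, while Tubb4a kept its sign at -0.13. The TPM intervals of replicate 1 and replicate 2 were apart for 7 of the 10 genes, compared with 21.7% of 13542 detected coding genes. They overlapped for Tuba1b, Tuba1c and Tuba4a, and were apart for Tubb2a, Tubb3 and Tubb5, whose scaled ratio intervals held 0.

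**Figure D4:**
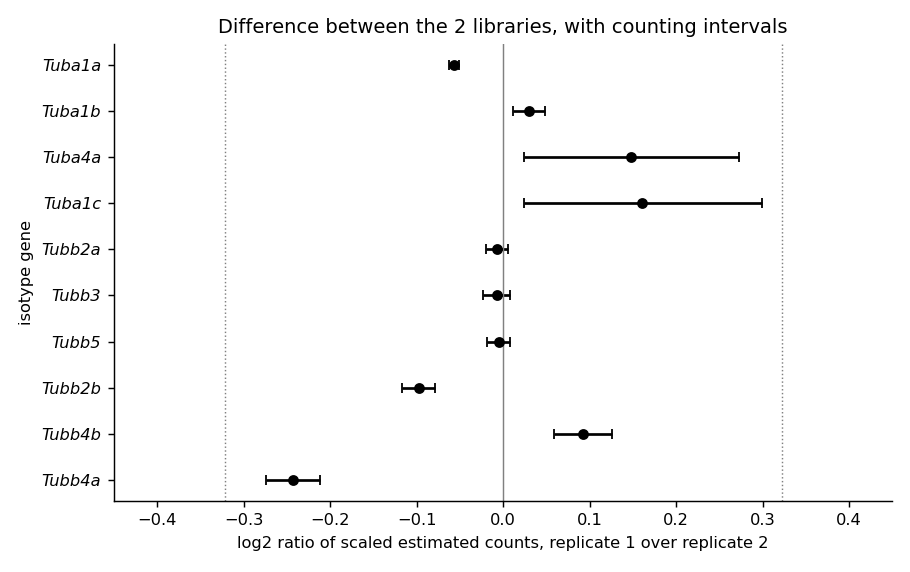
Log2 ratio of scaled estimated counts, replicate 1 over replicate 2, for each isotype (points) with its 95% exact counting interval (bars). Dotted lines mark 0.32 in each direction, which no isotype passes, and Tubb4a lies furthest from 0 at -0.24.

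Markers of some cell classes differed between the pools. All 6 cell cycle markers were higher in replicate 1, 3 of them past 0.32, with a median log2 ratio of 0.30, and their summed level was 340 TPM in replicate 1 against 293 TPM in replicate 2. The 10 neuron markers, none past 0.32, had a median of -0.03 and sums of 4263 and 4449 TPM, and the 8 progenitor markers, 1 past it, a median of 0.07 and sums of 2581 and 2610.3 TPM. The 5 oligodendrocyte markers, again none past 0.32, had a median of 0.02, with sums of 99.1 and 96.0 TPM and none at 0. The 5 motile cilia markers, 2 past it and higher in replicate 2, had a median of -0.22, with sums of 24.64 and 34.01 TPM, of which Foxj1, the master regulator of motile cilia, had 10.98 and 18.77 TPM. The 7 blood cell markers, of which 6 had enough counts and 4 of these were past 0.32, summed to 5041 and 4043 TPM, with Hba-a1, a globin, at 2582 and 2136 TPM. Over all 17048 genes compared, 16.7% were past 0.32 in either direction. The part of these markers in the isotype ratios was not tested.

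The genes that fold tubulin were all present. All 8 subunits of the chaperonin CCT, the ring complex in which new tubulin folds, were detected. Their median was 315 TPM, and Cct5 was highest at 375 ± 0.693 TPM, then Cct3 at 363 ± 0.714 and Cct6a at 359.6 ± 2.69. All 6 subunits of prefoldin, which hands new chains to CCT, had 1 TPM or more, the median being 123 TPM and the highest Pfdn5 at 373 ± 4.43, Vbp1 at 235 ± 3.75 and Pfdn6 at 133 ± 8.17 TPM. All 8 genes of the tubulin cofactor list, which assemble, take apart or regulate the dimer, were detected at a median of 84.6 TPM. Tbcb, which binds alpha tubulin, had 351 ± 4.91 TPM, Tbca, which binds beta tubulin, had 257 ± 22.6 TPM, and Arl2, a small GTPase of the cofactor complex, had 105 ± 2.81 TPM. For comparison, 63.1% of nuclear protein-coding genes were detected. All of these genes stood below Tuba1a, Tuba1b, Tubb2a, Tubb3, Tubb5 and Tubb2b in mean TPM.

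The enzymes that modify tubulin ranged widely. Atat1, the alpha tubulin acetyltransferase, had a level of 274 TPM in replicate 1 and of 339 TPM in replicate 2. Its log2 ratio of -0.33 lay just past 0.32, the direction of Tubb4a. The deacetylases Sirt2 and Hdac6 had 93.2 ± 7.96 and 56.9 ± 3.55 TPM. All 4 genes that remove or restore the terminal tyrosine of alpha tubulin were detected at a median of 47.3 TPM. Svbp, the partner of the vasohibin carboxypeptidases, led with 182 ± 4.29 TPM, then Vash2, one of those enzymes, with 64.7 ± 4.02 TPM, and Ttl, the tyrosine ligase, with 29.8 ± 1.05 TPM.

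Of 17 glutamylases, glycylases and complex subunits, 12 were detected, with a median of 9.23 TPM. The highest were Nicn1 at 103 ± 2.98 TPM, Ttll1 at 94.1 ± 8.78 TPM and Tpgs1 at 85.9 ± 3.80 TPM, all components of the complex that adds glutamate chains to tubulin tails. Of the 5 not detected, Ttll13 had 0.99 TPM in replicate 1 and 1.26 in replicate 2, so it reached 1 TPM in replicate 2 alone, and Ttll6, a glutamylase of cilia, was the highest with a mean under 1 TPM, at 0.29 ± 0.0849 TPM. Of 6 deglutamylases, 4 were detected, with a median of 5.96 TPM. Agtpbp1, the enzyme whose loss causes Purkinje cell degeneration in mice, was highest at 51.0 ± 4.24 TPM. Agbl5 followed at 18.2 ± 3.37 and Agbl3 at 9.77 ± 1.24 TPM, and Agbl2 at 0.57 ± 0.0707 TPM was the highest not detected. Both counts, 12 of 17 and 4 of 6, lay near the 63.1% of nuclear protein-coding genes that were detected.

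The other tubulin families were rare beside alpha and beta. Tubg1 and Tubg2 encode gamma tubulin, which nucleates microtubules, and had 63.4 ± 1.44 and 40.6 ± 3.15 TPM. Tubd1 and Tube1, the delta and epsilon tubulins of centrioles, had 5.75 ± 0.834 and 4.24 TPM on average.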

How the data were processed

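Total RNA of mouse embryonic hindbrain was measured in 2 libraries, with a gene and a transcript table each. Per the labels and accompanying notes, tables were made from the transcriptome alignments of 1 library each on mm10 with GENCODE M4. The aligner, quantifier and strand setting were not given in the sources used here. Estimated counts, as deposited, are reads per feature and carry no normalization. TPM as deposited is scaled over all features of a table, spike-ins included. The deposited FPKM was an alternative for shares only. The deposited interval bounds are a score on the TPM scale, and the deposited posterior SD is a signal on the count scale, per the file headers. The deposited percent of a gene held by each transcript was set beside shares computed here from transcript TPM. Transcript length exceeded effective length by 99 nt.

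Identifiers were matched without version to GENCODE M21, whose assembly, GRCm38, is that of mm10: 42462 of 43346 matched, and those unmatched held 0.200% of counts. Spike-ins held 2.86% and 3.09% of counts and stayed out of every list and library size. Ratios used TMM in edgeR 4.0.16 (R 4.3.3), a prior count of 0.5, a mean count of 20 or more and exact Clopper-Pearson 95% intervals, and were called past 1.25-fold. Such counts are not independent molecules, so the intervals cover counting error only. Interval widths were divided by the posterior mean TPM rather than the TPM. The floor for a count of 0 was 3 counts. Sequences were read from M21 transcripts and aligned globally with Biopython 1.88. The ratio steps were tested on simulated data for 17048 genes, of which 200 were changed 2-fold. Of the changed genes 100% were recovered, and of the unchanged genes 19.1% were called past 1.25-fold.

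The isotypes, lists and alternatives were chosen with earlier results of these data known. Named were all tubulin genes and, in each pathway list, the 3 of highest TPM and the highest below 1 TPM; forebrain factors, cell cycle sums and the Tubgcp genes were added after their values were seen. Alternatives were posterior mean TPM, FPKM, estimated counts, coding transcripts, other family totals, other detection minimums, count filters, pseudocounts and fold thresholds, DESeq2 1.42.0 size factors, library and spike-in totals, and each library alone. Libraries were grouped by the replicate number in their labels, and nothing was left out of the 2.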

Additional observations from a re-analysis of the deposited data

Results flagged for a closer look

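Processed pseudogenes that share 100-base windows with Tuba1a, Tuba1b and Tuba1c were listed with reads of their own, a signal outside the isotype shares. Gm14150 stood at 24.8 TPM in replicate 1 and 21.8 in replicate 2, a mean of 23.3, which is above Tuba1c. Gm6682 had 15.8 and 10.5 TPM, a mean of 13.1, from 81.0 and 56.6 estimated counts over an effective length of 198 nt. Gm17383 had 12.5 and 10.7 TPM, a mean of 11.6. In all, 6 such alpha pseudogenes summed to 58.8 and 48.8 TPM, which is 0.412% and 0.323% of the alpha total with them included. The matching 3 beta pseudogenes summed to 1.08 and 1.12 TPM. Whether reads of Tuba1a or Tuba1b reached these pseudogenes was not tested.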

How the results depend on the processing

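In all, 300 alternative values were computed for 52 results. Of these, 252 moved by less than the spread between the libraries or within the count's margin, and 48 moved by more. Part of the 252 was fixed in advance. With n = 2, the mean of a share, ratio or width cannot move past that spread when either library is left out. The count filters also could not change the log2 ratio of an isotype. Estimated counts without length correction gave Tuba1a 91.7% of alpha, Tubb2a 29.2% of beta and an alpha to beta ratio of 1.81, and adding pseudogenes that share windows, an alternative chosen after seeing the data, gave Tuba1a 91.8%. Either library alone gave 91.9 to 92.4% for Tuba1a, 35.7 to 36.0% for Tubb2a, a ratio of 2.11 to 2.15, and 10 isotypes detected. No isotype passed the fold between libraries with DESeq2 size factors, library totals, spike-in totals or TPM; the count filters and the higher threshold could not change that count. The percent of all genes past it, 16.7, became 8.78 at a mean count of 100, 38.7 with no count filter, 9.87 for TPM with a pseudocount of 1 and 6.45 at 1.5-fold. No paired analysis was possible because the series holds 1 group. Among the isotypes, counting error was largest for Tuba1c and Tuba4a, whose counts lay between 851 and 1068. Their intervals were also wider than counting alone would give, at ratios of 1.47 to 1.65. The cause of each change was not tested beyond the length correction itself.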

Other observations

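The genes Tubgcp2 to Tubgcp6 of the gamma tubulin ring complex, from which microtubules are nucleated, were detected. The share of nuclear protein-coding genes detected was 63.1%. Tubgcp2 had 40.5 ± 2.11 TPM, Tubgcp4 had 36.8 ± 0.629, Tubgcp3 had 31.3 ± 0.566, Tubgcp5 had 21.1 ± 0.325 and Tubgcp6 had 12.5 ± 0.552 TPM (SD, n = 2). These genes were chosen after their values were seen.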
